A study of Mus musculus with 6 samples.

Results

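Glycolysis and the response to low oxygen were followed through 39 genes, taken from the deposited tables by gene symbol. Of these, 20 serve glucose uptake, glycolysis, lactate release or their control, 8 are hypoxia-inducible factor (HIF) subunits or the proteins that regulate HIF, and 11 are other HIF target genes. They are 39 of the 55421 genes in the count table and of the 28533 genes in the deposited scaled table, and all 39 passed a low-count filter that left 18838 genes to test. The RNA came from femur, from a bone fraction in which osteocytes, cells that live inside the mineralised matrix, were enriched. The mice were C57BL/6 with the genotype WT and aged 12 weeks. One group of 3 libraries came from mice after phlebotomy, the removal of blood, and the other 3 libraries came from control mice. The sources used here give neither the volume of blood nor the time until the bone was taken. Libraries are called phlebotomy 1, 2 and 4 and control 1, 2 and 4 after the column numbers. The control columns are known as such only because the other initial stands for phlebotomy, and no label ties a library to its own animal, so a p-value here measures the spread between libraries, which may be technical.

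Cells break glucose down to pyruvate through the glycolytic enzymes, and turn pyruvate into lactate when oxygen is short. HIF is a pair of proteins, an oxygen-sensitive alpha subunit and the stable partner ARNT, that switches on glycolytic and other genes under low oxygen. With oxygen present, EGLN prolyl hydroxylases mark the alpha subunits for capture by VHL and destruction, so much of the control acts on protein that RNA levels do not show. In bone, HIF in osteoblasts and osteocytes is known for its part in vessel growth and in the making of erythropoietin, the hormone that drives red cell formation. Blood removal lowers the oxygen that blood can carry.

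HIF binds short DNA words that hold ACGTG or GCGTG, and these words were sought on both strands in RefSeq promoter windows (GRCm38.p6, 250 bases before to 50 bases after a start). A window was found for 34 of the 39 genes, and not for Slc2a3, Epas1, Ndrg1, Angptl4 and Bnip3l. Either word stood in a window of 30 of the 34 genes (88.2%), against 64.6% of the 11716 tested genes with a window. Of all 27025 genes with a window the share was 46.7%, and of all 32851 windows taken singly it was 43.8%. A gene counted if any of its windows held a word, so several windows give more chances. The number of windows per gene was not matched. The median GC content of the windows was 62.5% for the 34 genes and 60.0% for the tested genes. A copy of CACGTG counts on both strands, and a match is a string of letters and not a shown binding site. The windows of 3 genes with higher values after phlebotomy (Hif3a, Egln3, Pdk1) and of 2 with lower values (Egln1, Adm) follow, 5′ to 3′ along the gene's strand, so that the words can be seen beside the values. Capitals mark ACGTG and GCGTG, or CACGC where GCGTG lies on the opposite strand.

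Hif3a, chr7:17062378-17062677, minus strand: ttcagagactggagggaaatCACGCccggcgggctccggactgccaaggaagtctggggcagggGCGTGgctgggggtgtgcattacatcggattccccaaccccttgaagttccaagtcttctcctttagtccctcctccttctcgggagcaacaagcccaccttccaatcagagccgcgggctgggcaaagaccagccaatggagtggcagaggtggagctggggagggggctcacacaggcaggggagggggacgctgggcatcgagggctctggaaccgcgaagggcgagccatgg

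Egln3, chr12:54203825-54204124, minus strand: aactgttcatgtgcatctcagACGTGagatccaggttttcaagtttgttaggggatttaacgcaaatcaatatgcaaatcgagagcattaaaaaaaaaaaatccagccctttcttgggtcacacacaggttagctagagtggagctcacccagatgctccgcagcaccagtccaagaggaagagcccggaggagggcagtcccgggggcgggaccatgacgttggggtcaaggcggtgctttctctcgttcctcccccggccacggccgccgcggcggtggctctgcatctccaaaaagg

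Pdk1, chr2:71872974-71873273, plus strand: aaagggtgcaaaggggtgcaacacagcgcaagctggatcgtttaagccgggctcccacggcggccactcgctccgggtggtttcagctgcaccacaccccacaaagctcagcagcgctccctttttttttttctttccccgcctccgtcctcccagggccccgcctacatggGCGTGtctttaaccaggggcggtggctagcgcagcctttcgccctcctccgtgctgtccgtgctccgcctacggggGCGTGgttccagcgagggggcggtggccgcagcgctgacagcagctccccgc

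Egln1, chr8:124949205-124949504, minus strand: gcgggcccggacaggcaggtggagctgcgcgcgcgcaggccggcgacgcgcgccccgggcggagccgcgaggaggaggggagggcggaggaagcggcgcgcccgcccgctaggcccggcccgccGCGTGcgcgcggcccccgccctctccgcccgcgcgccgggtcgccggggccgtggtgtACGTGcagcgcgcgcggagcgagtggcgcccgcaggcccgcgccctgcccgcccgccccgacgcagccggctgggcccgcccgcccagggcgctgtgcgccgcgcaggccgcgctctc

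Adm, chr7:110627407-110627706, plus strand: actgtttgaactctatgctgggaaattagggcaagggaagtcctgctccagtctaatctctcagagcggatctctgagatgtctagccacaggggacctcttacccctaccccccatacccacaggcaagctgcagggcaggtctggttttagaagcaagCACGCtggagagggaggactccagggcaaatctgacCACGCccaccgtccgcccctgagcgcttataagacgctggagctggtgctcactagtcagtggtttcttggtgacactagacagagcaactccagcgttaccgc

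The words lay in unlike places in genes of like direction. Counting the base just before the start as -1, they began at -78 and -2 in Pdk1 and at -90 and -54 in Adm. In Hif3a they began at -230 and -186, in Egln1 at -126 and -68, and in Egln3 the single word began at -229.

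The libraries held between 11219243 (control 1) and 19015588 (control 2) counts in genes. On the principal component with most of the variance (44.1%), phlebotomy 2 lay nearer the controls than the rest of its group. The phlebotomy libraries scored 49.3, -6.83 and 31.9 and the control libraries -42.6, -18.8 and -12.9. By chi-square per degree of freedom between pairs of libraries over tested genes, phlebotomy 1 stood farthest from the rest of its group instead. The value was 60.4 for phlebotomy 1 and 2, 40.3 for 1 and 4, and 34.3 for 2 and 4. Among controls it was 23.7 for 1 and 2, 50.9 for 1 and 4, and 28.8 for 2 and 4. Control 1 and 4 were thus farther apart than phlebotomy 1 and 4. Because of its place on that component, values without phlebotomy 2 are also given for Egln3, Ndrg1, Angptl4, Bnip3, Slc16a3 and Pfkfb4. Leaving out a library picked for lying near the controls tends to widen the group difference. The p-values of that fit are therefore selected on the outcome and serve as description only. Defining osteocyte genes were present, since the lowest of 9 markers averaged 38.5 CPM (counts scaled to library size) over the 6 libraries, while 6 of 12 skeletal muscle markers were at 0 in at least 1 library.

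None of the 39 genes passed edgeR's quasi-likelihood test at an adjusted p under 0.05, a threshold that 3 of the 18838 genes passed (0.0159%). With p under 0.05 before adjustment, 3 genes were higher after phlebotomy (Pdk1, Hif3a and Egln3, against 7.01% of all genes) and 7 were lower (Hk1, Epas1, Arnt, Egln1, Adm, Ndrg1 and Angptl4, against 9.42%). Hif3a passed the low-count filter only through the phlebotomy libraries, where it is high, and without it 2 genes were higher. Of all genes 16.4% had such a p in either direction. DESeq2 called 1 of the 39 at an adjusted p under 0.05, Ndrg1, in a fit where 285 of the 18838 genes passed (1.51%). It gave no adjusted p to 7678 of those genes, among them Hif3a and Car9. Without a low-count filter edgeR also called Ndrg1 alone of the 39, and 1.24% of genes passed. The test limma-voom called 0. The median log2 fold change, phlebotomy over control, was -0.18 for the 8 HIF regulators, of which 2 were higher and 6 lower. It was -0.20 for the 11 other HIF targets, with 3 higher and 8 lower, and -0.06 for the 20 glycolysis genes, with 8 higher and 12 lower. Over all genes tested the median was -0.0028 and 50.2% of genes were below 0. Scaling by library totals alone shifted the median of all genes by 0.14 and turned the glycolysis median to 0.08, while the counts became 7 higher and 3 lower genes, against 13.0% and 4.42% of all genes under that scaling.

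**Figure D1:**
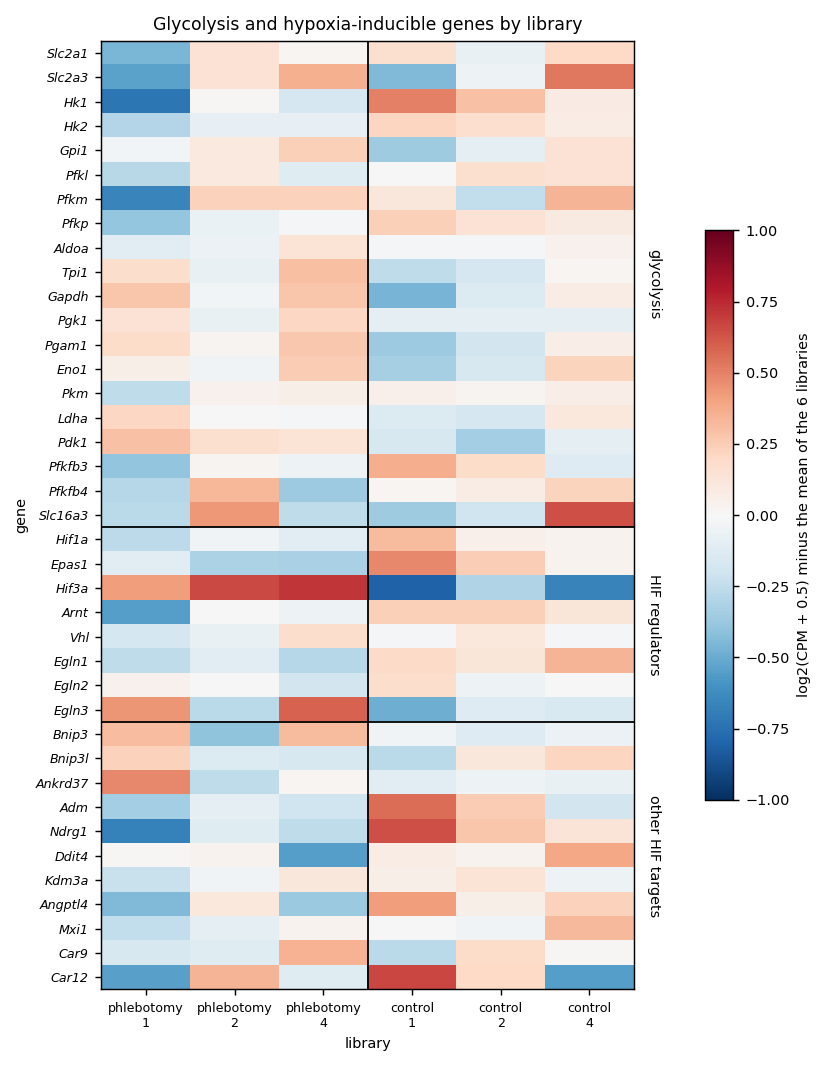
Level of each of the 39 genes in each library, as log2(CPM + 0.5) minus the mean of the 6 libraries, with the phlebotomy libraries left of the control libraries and genes grouped by role. Red is above and blue below a gene's own mean. Hif3a and Pdk1 are red in all 3 phlebotomy libraries and blue in all 3 control libraries, and Ndrg1 and Epas1 show the opposite.

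The phlebotomy and control libraries did not overlap in 11 of the 39 genes (28.2%), beside 21.2% of all genes tested. Among these, 3 were higher after phlebotomy (Pgk1, Pdk1 and Hif3a, against 9.93% of all genes) and 8 were lower (Hk1, Hk2, Pfkp, Hif1a, Epas1, Arnt, Egln1 and Ndrg1, against 11.3%). Hif3a is counted here although it passed the low-count filter only through the phlebotomy libraries, where it is high. On the authors' own scaled values Pgk1 overlapped, and Ddit4 and Mxi1 were lower without overlap. Fewer cells of a type and less RNA per cell cannot be told apart in these bulk libraries.

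The HIF alpha subunits differed in direction (gene coordinates here and after are those of GENCODE M21 on GRCm38). Hif1a (ENSMUSG00000021109, chr12:73901375-73947530), the alpha subunit found in most cell types, had 352, 412 and 392 CPM in phlebotomy 1, 2 and 4, against 527, 438 and 433 CPM in control 1, 2 and 4. All 3 phlebotomy libraries lay below all 3 control libraries, yet the log2 fold change of -0.27 ± 0.17 (SE) had an edgeR adjusted p of 0.442. Epas1 (ENSMUSG00000024140, chr17:86753700-86833410), which encodes HIF-2 alpha, had 53.5, 46.3 and 46.1 CPM after phlebotomy, against 81.2, 68.7 and 59.4 CPM in controls. The highest phlebotomy library stayed under the lowest control library, and the log2 fold change was -0.52 ± 0.17 (SE, edgeR adjusted p = 0.202).

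Hif3a (ENSMUSG00000004328, chr7:17031507-17062427) encodes a further alpha subunit, some forms of which hold HIF activity back. It had 1.13, 1.43 and 1.51 CPM after phlebotomy, from 19, 22 and 24 counts, against 0.197, 0.490 and 0.268 CPM in controls, from 2, 9 and 4 counts. Every phlebotomy library was above every control library, though control 1 was under a floor of 3 counts, and the gene passed the low-count filter only through the phlebotomy libraries. The ratio of the summed counts, 65 after phlebotomy and 15 in controls, was 3.91 after scaling, with an exact 95% interval of 2.21 to 7.39 for counting error only. The fit gave a log2 fold change of 1.99 ± 0.51 (SE, edgeR adjusted p = 0.148), and a minimum count of 50 removed the gene from the test. As a share of the summed level of the alpha subunits per kilobase of transcript, Hif3a made up 0.233% ± 0.024 after phlebotomy and 0.046% ± 0.025 in controls (SD, n = 3 each). Hif1a made up 90.0% ± 1.5 after phlebotomy and 88.6% ± 0.73 in controls, so Hif3a RNA was a small part of the alpha subunit RNA in both groups.

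Arnt (ENSMUSG00000015522, chr3:95434388-95497240), the partner of the alpha subunits, had 40.0, 58.7 and 56.5 CPM after phlebotomy, against 69.2, 69.4 and 64.0 CPM in controls. The groups did not overlap and phlebotomy 1 was the lowest library (log2 fold change -0.38 ± 0.18, SE, edgeR adjusted p = 0.303). Without phlebotomy 1 the log2 fold change was -0.20. Vhl, the capture subunit that sends hydroxylated alpha subunits to destruction, had 32.3, 34.9 and 41.4 CPM after phlebotomy, against 36.5, 39.5 and 36.2 CPM in controls. Its groups overlapped on both sides and its log2 fold change was -0.04, which turned to 0.10 under scaling by library totals.

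The EGLN oxygen sensors differed among themselves. Egln1 (ENSMUSG00000031987, chr8:124908587-124949324), the main hydroxylase of HIF alpha, had 31.1, 34.6 and 30.5 CPM after phlebotomy, against 42.6, 40.6 and 47.3 CPM in controls. The groups were apart, and the log2 fold change was -0.44 ± 0.17 (SE, edgeR adjusted p = 0.237). Egln2 had 35.4, 34.5 and 30.3 CPM after phlebotomy, against 39.04, 33.3 and 34.6 CPM in controls, which overlapped (log2 fold change -0.09, and 0.05 under scaling by library totals).

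Egln3 (ENSMUSG00000035105, chr12:54178981-54203860), the EGLN gene known as most strongly induced by HIF itself, had 34.7, 21.0 and 38.5 CPM after phlebotomy, against 18.0, 23.2 and 22.8 CPM in controls. Phlebotomy 1 and 4 were above every control library, and phlebotomy 2 lay among the controls. The log2 fold change was 0.56 ± 0.23 (SE, edgeR adjusted p = 0.253). Without phlebotomy 2 it was 0.74, with an edgeR adjusted p of 0.0481 in a fit that called 963 of 20300 genes (4.74%). Since that library was picked for lying near the controls, this p is selected on the outcome. Over all alternatives the adjusted p ran between 0.0481 and 0.644. With 1 library left out the log2 fold change ran from 0.38 to 0.74. Per kilobase, Egln1 held 24.5% ± 3.3 of the summed EGLN level after phlebotomy and 32.6% ± 1.6 in controls (SD, n = 3 each), and the groups did not overlap. Egln3 held 33.8%, 23.3% and 38.8% after phlebotomy and 18.2%, 24.3% and 22.4% in controls, and the groups overlapped. With 3 libraries against 3, an exact permutation test of such a share cannot go below 0.10, so none is given as a result.

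**Figure D2:**
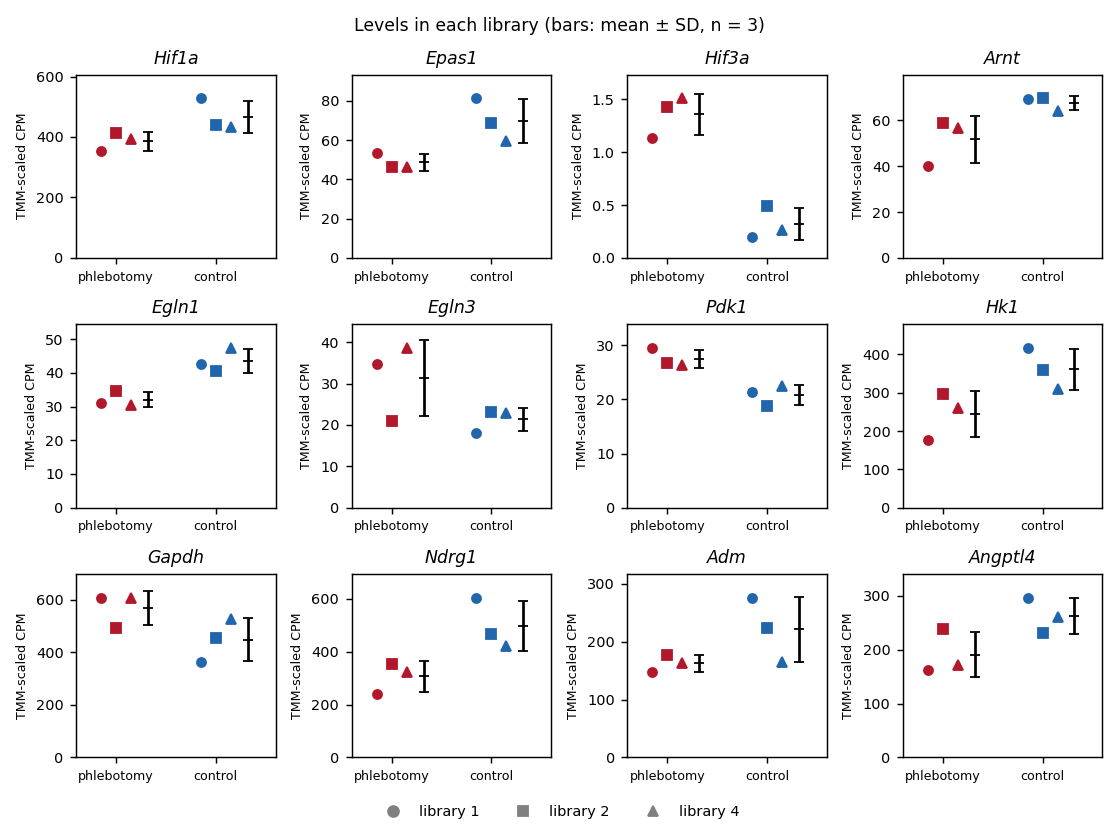
TMM-scaled CPM of 12 genes in each library, phlebotomy (red) left of control (blue), with library number by symbol and black bars for the mean ± SD (n = 3). Hif3a and Pdk1 are higher and Epas1, Arnt, Egln1, Hk1 and Ndrg1 lower after phlebotomy without overlap, while the square for phlebotomy 2 sits among the controls in Egln3.

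The glycolysis genes are given in the order of the pathway, and none of them passed the adjusted threshold. Transporters and hexokinases, which bring glucose in and trap it, had log2 fold changes below 0 in 4 of 4 genes (median -0.23), of which Slc2a3 turned to 0.05 with upper-quartile scaling and to 0.10 with library totals. With the trend of length and GC content removed, described further on, 2 of the 4 were below 0. From aldolase to enolase, the steps that split the sugar and carry the trioses, 5 of 6 genes had log2 fold changes above 0 (median 0.23) and Aldoa -0.01. Without control 1 Gapdh had 0.20 in place of 0.34, Pgam1 0.21 in place of 0.32 and Eno1 0.039 in place of 0.17.

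Hk1 (ENSMUSG00000037012, chr10:62268855-62379908), the hexokinase of most tissues, had 178, 296 and 261 CPM after phlebotomy, against 416, 359 and 309.6 CPM in controls. All phlebotomy libraries were below all control libraries, and phlebotomy 1 was far below the other 2 (log2 fold change -0.56 ± 0.20, SE, edgeR adjusted p = 0.222). Without phlebotomy 1 the log2 fold change was -0.35. Hk2, the hexokinase that insulin and HIF induce, had 65.7, 76.28 and 76.28 CPM after phlebotomy, against 93.4, 90.4 and 84.9 CPM in controls. The gap was small but without overlap (log2 fold change -0.30 ± 0.16, SE, edgeR adjusted p = 0.357). Of the summed hexokinase level per kilobase, Hk1 made up 59.5% ± 2.8 after phlebotomy and 67.2% ± 7.3 in controls, with overlap (SD, n = 3 each). The glucose transporters Slc2a1 and Slc2a3 had log2 fold changes of -0.17 and -0.03.

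At the phosphohexose steps Gpi1, which turns glucose 6-phosphate into fructose 6-phosphate, had a log2 fold change of 0.20. The phosphofructokinases, which catalyse the committed step, had -0.19 for Pfkl, -0.10 for Pfkm and -0.31 for Pfkp. Pfkp had 124, 155 and 159.6 CPM after phlebotomy, against 191, 179.7 and 173 CPM in controls, so its groups were apart by a narrow gap (edgeR adjusted p = 0.365), and its log2 fold change was -0.18 without phlebotomy 1. Pfkl made up 62.4% ± 2.5 of the phosphofructokinase level per kilobase after phlebotomy and 60.8% ± 2.6 in controls (SD, n = 3 each).

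Among the triose enzymes Gapdh, which makes NADH and is often used as a loading control, had 606, 492 and 606 CPM after phlebotomy, against 363, 455 and 526 CPM in controls. Phlebotomy 2 lay under the highest control library, so the groups overlapped (log2 fold change 0.34 ± 0.19, SE, edgeR adjusted p = 0.377). Pgk1, which makes ATP from bisphosphoglycerate, had 185, 159.4 and 194 CPM after phlebotomy, against 157.7, 157.7 and 158.0 CPM in controls. Phlebotomy 2 was barely above the controls, which agreed closely (log2 fold change 0.19 ± 0.16, SE, edgeR adjusted p = 0.561). Tpi1, Pgam1 and Eno1 had log2 fold changes of 0.27, 0.32 and 0.17, and Aldoa, the aldolase before them, had -0.01.

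At the end of the pathway Pkm, which makes pyruvate, had a log2 fold change of -0.09, Ldha, which makes lactate, 0.14 and Slc16a3, which exports lactate, -0.09. Ldha held 98.2% ± 0.48 of the summed Ldha and Ldhb level per kilobase after phlebotomy and 98.2% ± 0.36 in controls (SD, n = 3 each). Slc16a3 had 188, 308 and 191 CPM after phlebotomy, against 178, 199 and 355 CPM in controls. Its 2 highest libraries, control 4 and phlebotomy 2, were also those with the highest summed megakaryocyte markers (796, 1024 and 662 CPM after phlebotomy, against 564, 634 and 1250 CPM in controls), whose part in the result was not tested. Without phlebotomy 2 the log2 fold change of Slc16a3 was -0.40.

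Of the enzymes that set the direction of flow, Pdk1 (ENSMUSG00000006494, chr2:71873224-71903858) limits the use of pyruvate in the mitochondria by inhibiting pyruvate dehydrogenase. It had 29.4, 26.7 and 26.2 CPM after phlebotomy, against 21.3, 18.8 and 22.4 CPM in controls. The lowest phlebotomy library was above the highest control library, and the spread within each group was narrow (log2 fold change 0.40 ± 0.18, SE, edgeR adjusted p = 0.280). Pdk1 made up 6.19% ± 1.1 of the summed Pdk1 to Pdk4 level per kilobase after phlebotomy and 3.87% ± 0.73 in controls, without overlap, and Pdk4 was the largest member with 68.2% ± 2.9 after phlebotomy and 74.5% ± 7.7 in controls (SD, n = 3 each). Pfkfb3 and Pfkfb4, which make the activator of phosphofructokinase, had log2 fold changes of -0.28 and -0.18. Without phlebotomy 2 Pfkfb4 had -0.47, with an edgeR adjusted p of 0.133, and without phlebotomy 4 it had -0.05.

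**Figure D3:**
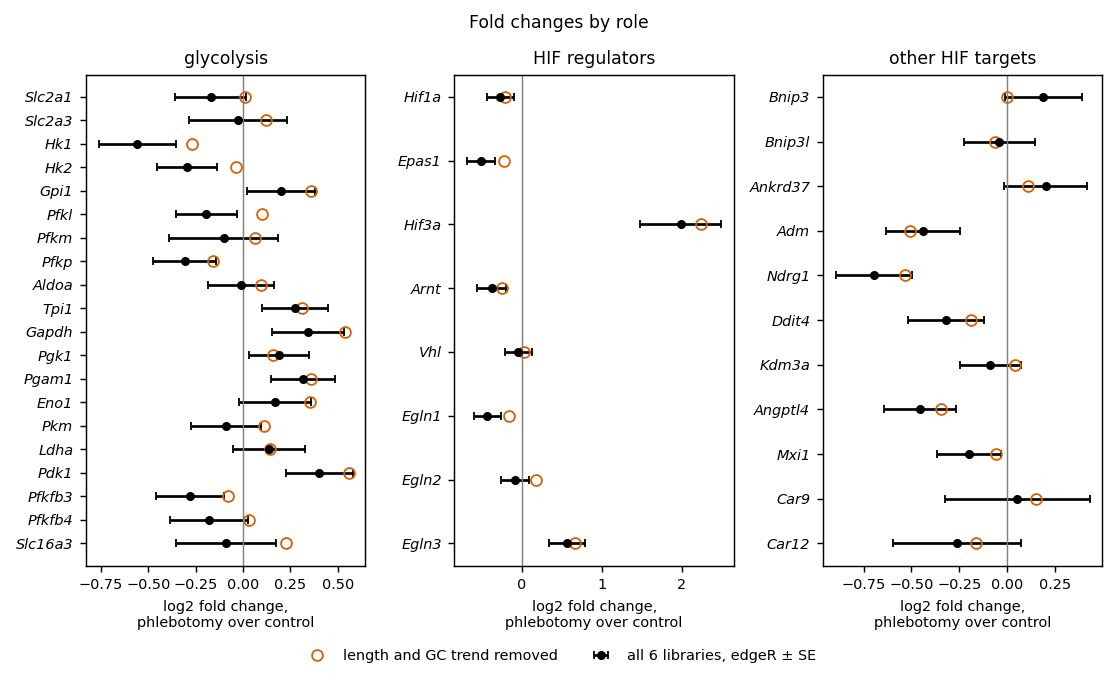
Log2 fold change, phlebotomy over control, of each gene by role. Black points with bars are edgeR estimates ± SE from all 6 libraries, orange circles are the estimates after a trend with transcript length and GC content was removed in each library, and the axes differ between panels. Gapdh, Pgam1 and Pdk1 lie right of 0 under both, and Hk1 and Hk2 lie closer to 0 once the trend is removed.

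Log2 fold changes were also set beside transcript length. The 4 transport and hexokinase genes have longest transcripts of 3.26 to 6.25 kb, and the 6 genes from aldolase to enolase of 1.55 to 3.29 kb, with Aldoa the shortest. Over 18822 tested genes with a known length, the Spearman correlation of log2 fold change with transcript length was -0.246, and over the 20 glycolysis genes it was -0.505. These are descriptions across genes that share the same 6 libraries. The median log2 fold change was 0.21 in the 968 genes of 0.707 to 1 kb and -0.18 in the 1685 genes of 5.66 to 8 kb. Within libraries the correlation of a gene's relative level with length was lowest in phlebotomy 1 (-0.361), against -0.0202 and 0.0297 in phlebotomy 2 and 4 and 0.174, 0.249 and 0.0633 in control 1, 2 and 4.

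With the length and GC trend removed, the median log2 fold change was 0.12 for glycolysis genes, -0.07 for HIF regulators and -0.06 for other HIF targets. Over all genes tested it was 0.04 in that fit, against -0.0028 in the main fit. Before adjustment, p was then under 0.05 for 5 higher genes (Gapdh, Pgam1, Pdk1, Hif3a and Egln3) and 2 lower genes (Adm and Ndrg1), against 8.77% and 5.03% of all genes in that fit. Of these, Hif3a passed the low-count filter only through the phlebotomy libraries, where it is high. Hk1 had a log2 fold change of -0.27, Hk2 -0.04 and Epas1 -0.22, all nearer to 0 than before. Gapdh had 0.54, Pdk1 0.56, Egln3 0.67 and Hif3a 2.25, all farther from 0. The other triose enzymes had 0.31 (Tpi1), 0.16 (Pgk1), 0.36 (Pgam1) and 0.35 (Eno1), and the transporters 0.0096 (Slc2a1) and 0.12 (Slc2a3). None passed the adjusted threshold.

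**Figure D4:**
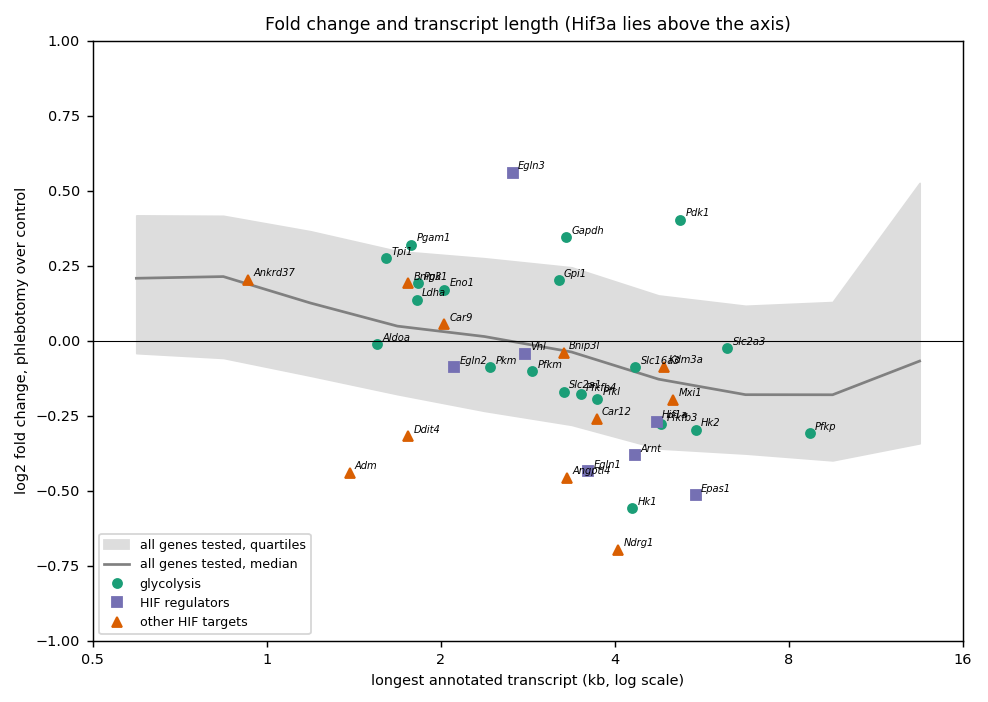
Log2 fold change, phlebotomy over control, against the longest annotated transcript (kb, log scale) for 38 of the 39 genes by role, with Hif3a (log2 fold change 1.99) above the axis. The grey line and band are the median and quartiles of all genes tested in bins of length, and the line runs from 0.21 at 0.707 to 1 kb to -0.18 at 5.66 to 8 kb. Egln3, Pdk1, Pgam1 and Gapdh lie above the band, and Hk1, Epas1, Arnt, Egln1, Angptl4, Ndrg1, Ddit4 and Adm lie below it.

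The other HIF targets were led by Ndrg1 (ENSMUSG00000005125, chr15:66929318-66969640), a stress gene induced by low oxygen and also tied to cell differentiation. It had 241, 354 and 324 CPM after phlebotomy, against 603, 467 and 423 CPM in controls. Every phlebotomy library was below every control library, and the log2 fold change was -0.70 ± 0.20 (SE, edgeR adjusted p = 0.171). DESeq2 gave an adjusted p of 0.0442 in a fit that called 285 of 18838 genes (1.51%). It gave no adjusted p to 7678 of the 18838, so the share called among genes with an adjusted p was larger. Without phlebotomy 2, a library picked for lying near the controls, edgeR gave -0.85 with an adjusted p of 0.0495. With 1 library left out the log2 fold change ran from -0.85 to -0.52. The adjusted p ran from 0.0214 to 0.614 over all alternatives.

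Adm (ENSMUSG00000030790, chr7:110627661-110629820), the vessel-widening peptide adrenomedullin, had 148, 176 and 163 CPM after phlebotomy, against 276, 224 and 165 CPM in controls. Control 4 lay inside the phlebotomy range, and the 2 other control libraries were above it (log2 fold change -0.44 ± 0.19, SE, edgeR adjusted p = 0.279). Without control 1 the log2 fold change was -0.27. Angptl4 (ENSMUSG00000002289, chr17:33773750-33781830), a secreted inhibitor of lipoprotein lipase, had 163, 238 and 171 CPM after phlebotomy, against 296, 231 and 261 CPM in controls. Phlebotomy 2 overlapped the controls, and the log2 fold change was -0.46 ± 0.19 (SE, edgeR adjusted p = 0.256). Without phlebotomy 2, the library picked for lying near the controls, it was -0.68, with an edgeR adjusted p of 0.0539. With 1 library left out the log2 fold change ran from -0.68 to -0.33. The adjusted p ran from 0.0539 to 0.670 over all alternatives.

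The mitophagy receptors Bnip3 and Bnip3l had log2 fold changes of 0.19 and -0.04. Bnip3 had 50.3, 30.4 and 50.5 CPM after phlebotomy, against 39.4, 37.0 and 38.9 CPM in controls, so phlebotomy 2 was below the controls and the other 2 phlebotomy libraries above them. With 1 library left out its log2 fold change ran from 0.07 to 0.36. The value of 0.36 came without phlebotomy 2, with an edgeR adjusted p of 0.201. Leaving out that library also gave -0.33 for Slc2a1, -0.34 for Pfkl, 0.32 for Ankrd37 and -0.58 for Car12. The remaining targets were Ankrd37 (0.20), the mTOR inhibitor Ddit4 (-0.32), the histone demethylase Kdm3a (-0.09), the MYC antagonist Mxi1 (-0.20) and the carbonic anhydrases Car9 (0.05) and Car12 (-0.26), given as log2 fold changes. Car9, a classic marker of hypoxic cells, stayed low with 1.31, 1.36 and 2.07 CPM after phlebotomy and 1.18, 1.80 and 1.54 CPM in controls.

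Per kilobase of longest transcript, the highest levels of the 39 genes were those of Ldha (819 CPM per kb after phlebotomy and 747 in controls), Aldoa (485 and 490.3) and Pkm (433 and 462). The lowest were those of Hif3a (0.212 and 0.0497), Car9 (0.782 and 0.744) and Car12 (1.39 and 1.69). Both orders were kept in controls when all exons of a gene were used as its length. Hif1a stood at 81.6 CPM per kb after phlebotomy and 98.7 in controls, well above Epas1 with 8.82 after phlebotomy and 12.6 in controls.

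Markers of bone cells had log2 fold changes below 0, and their sums overlapped between the groups. Summed osteocyte markers were 13970, 25270 and 25110 CPM after phlebotomy, against 49320, 45840 and 23190 CPM in controls, and 9 of 9 genes had log2 fold changes below 0. Summed osteoblast markers were 36060, 63420 and 47650 CPM after phlebotomy, against 94870, 69040 and 62100 CPM in controls, again with 9 of 9 below 0. With each gene's log2 level centred on its own mean, osteocyte markers averaged -0.72, -0.178 and -0.221 after phlebotomy, against 0.631, 0.347 and 0.142 in controls. These did not overlap, while the osteoblast averages did. Unadjusted edgeR p was under 0.05 for 8 of 9 osteocyte and 4 of 9 osteoblast markers, against 16.4% of all genes. Within each group Ndrg1, Hk1, the osteocyte sum and the osteoblast sum put the libraries in the same order. Neutrophil markers summed to 45690, 37370 and 29630 CPM after phlebotomy, against 21230, 36320 and 51280 CPM in controls, and erythroid markers to 28330, 21400 and 18800 CPM after phlebotomy, against 12590, 22300 and 27530 CPM in controls. Both sums overlapped between the groups, and 11 of 14 neutrophil and 8 of 11 erythroid genes had log2 fold changes above 0. Control 1, highest in bone cell markers and lowest in both blood lists, was also the highest library for Ndrg1, Hk1, Hif1a, Epas1, Adm and Angptl4 and the lowest for Gapdh, Pgam1 and Eno1. The part of cell makeup in these results was not tested.

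**Figure D5:**
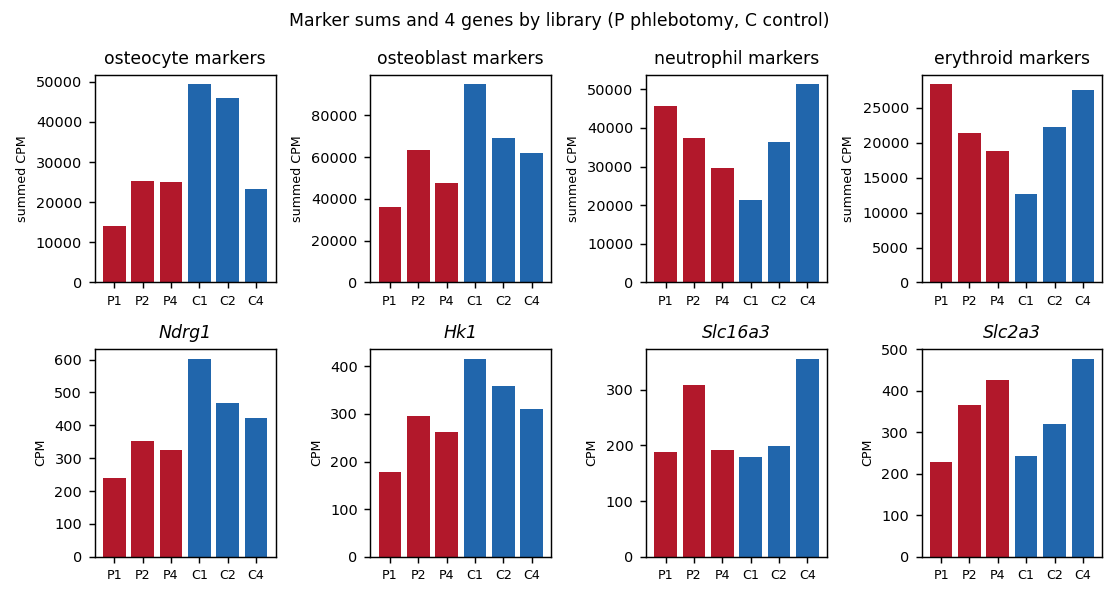
Summed CPM of osteocyte, osteoblast, neutrophil and erythroid markers (top) and CPM of Ndrg1, Hk1, Slc16a3 and Slc2a3 (bottom) in each library, phlebotomy (P, red) left of control (C, blue). Ndrg1 and Hk1 are highest in control 1 and lowest in phlebotomy 1, as are the osteocyte and osteoblast sums.

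Other genes of the same pathways were listed apart from the 39, and 0 of them passed the adjusted threshold of edgeR or of limma-voom. DESeq2, at its adjusted p under 0.05, called 0 of the other glycolysis genes, 1 of the other HIF regulators (Ep300, lower) and 3 of the other hypoxia-inducible genes (Tfrc, higher, and Lox and Vegfa, lower). Over all genes it called 285 of 18838 (1.51%), and 7678 of the 18838 had no adjusted p. Of 36 other glycolysis genes 31 were tested, 17 higher and 14 lower (median log2 fold change 0.02), with 0 higher and 3 lower at an unadjusted p under 0.05, against 7.01% and 9.42% of all genes. Among those with the smallest p were Gpd1 (-0.85), which links glycolysis to lipid synthesis, the enolase Eno2 (-0.86) and the pyruvate dehydrogenase kinase Pdk4 (-0.41).

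Of 19 other regulators of the HIF pathway all were tested, with a median of -0.18, and 1 was higher and 6 lower at an unadjusted p under 0.05, against 7.01% and 9.42% of all genes. The smallest p belonged to the HIF coactivators Ep300 (-0.58) and Crebbp (-0.60), to Cited2 (-0.56), which competes with HIF for them, and to Arnt2 (-1.05), a relative of Arnt. Ep300 had 40.8, 47.3 and 41.1 CPM after phlebotomy, against 67.5, 63.9 and 62.7 CPM in controls, without overlap (edgeR adjusted p = 0.162).

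Of 42 other hypoxia-inducible genes 41 were tested, with a median of -0.17, and 2 were higher and 11 lower at an unadjusted p under 0.05, against the same shares of all genes. The smallest p belonged to the transferrin receptor Tfrc (0.79), the collagen crosslinker Lox (-0.83), the transcription factor Bhlhe40 (-0.66) and the vessel growth factor Vegfa (-0.86). Tfrc, which is also in the erythroid list, had 495, 339 and 637 CPM after phlebotomy, against 247, 304.4 and 304.0 CPM in controls, without overlap (edgeR adjusted p = 0.167). Vegfa had 505, 920.1 and 719 CPM after phlebotomy, against 1692, 1362 and 844 CPM in controls, and phlebotomy 2 overlapped control 4 (edgeR adjusted p = 0.191).

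Several glycolysis genes have near-identical copies in the genome that could share their reads. At 95% identity over at least 200 bases, 90 other genes matched Gapdh, 85 of them pseudogenes, and their counts came to 28.1% of its own. For Bnip3 the share was 40.1%, for Gpi1 17.3%, for Pkm 15.3%, for Pgam1 13.3% and for Eno1 12.8%, and Bnip3l had 4066 counts in a copy beside 20325 of its own. The share was at most 6.73% for the other genes. Adding the copies' counts left Gapdh at a log2 fold change of 0.33 and Bnip3 at 0.21. Exons of Ankrd37 and Bnip3 overlap other genes on the opposite strand over 22.7% and 22.3% of their length, and with a kit that does not mark strand such reads cannot be told apart. A further row named Aldoa held 17 counts after phlebotomy and 4 in controls and was not tested.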

How the data were processed

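RNA was measured in 6 libraries, 3 from phlebotomy and 3 from control mice, made with Nextera XT and read as 126 bp pairs on a HiSeq1500, per the labels' protocols. Per the submitters' processing notes the tools were DESeq2, edgeR, limma and STAR in versions 2.5.2a and 2.7.3a and the builds mm10 and GRCm38.p3, with no roles given, and the counting program is not given in the sources used here. The authors deposited raw counts per gene, a filtered copy of them, and a signal table that its name calls TMM-scaled CPM. Rows that name no mouse gene (0.00278% to 0.0285% of counts) were left out.

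From the raw counts, edgeR 4.0.16 (R 4.3.3) was run with TMM scaling, a minimum count of 10 and Benjamini-Hochberg adjustment over 18838 genes, threshold 0.05. CPM values printed here use these factors and not those of the deposited table. Standard errors come from the F statistic. Floors and exact intervals cover counting error only, and an SD is the spread between libraries. Lengths and overlaps come from GENCODE M21 (GRCm38), copies from BLAST 2.17.0, and the fit was tested on simulated data. Alternatives used DESeq2 1.42.0, limma 3.58.1, other scalings and filters, a replicate block, a length and GC correction and each library left out. The genes and lists were chosen with earlier results of these data known. Values of every library are given for genes with an unadjusted p under 0.05, without overlap or with an absolute log2 fold change of 0.5 or more, and for HIF and EGLN genes, and the 4 genes with the smallest p for each further list, of which 1 is not reported here. Single genes beyond this rule (Gapdh, Slc16a3, Bnip3, Car9, Ep300, Tfrc, Vegfa) were shown after their values were seen. Marker lists of macrophages, B cells, endothelium, adipocytes and chondrocytes were also summed, with 6 of 8, 1 of 7, 1 of 6, 2 of 6 and 0 of 5 tested genes higher after phlebotomy.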

Additional observations from a re-analysis of the deposited data

Results flagged for a closer look

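Rows of the count table that name no mouse gene took 0.0285% of the counts of phlebotomy 2 (4288 counts), above the 380 to 640 counts of the control libraries. These rows are outside the comparisons, and the same library stood apart from the other phlebotomy libraries in Egln3 and Bnip3. Their part in those values was not tested.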

How the results depend on the processing

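Of the 37 genes with a value in all 20 alternatives, 1 of which (adding the copies' counts) was chosen after the data were seen, 22 kept their direction in each. Of the 10 genes with an unadjusted p under 0.05, 9 did so and Hif3a kept its direction in the 19 that gave it a value, and Ndrg1 stayed under that p in all 20. The 51 of 778 values that turned lay in 16 genes, none with a log2 fold change beyond 0.26 in size. The cause of each turn was not tested.

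Counts of genes past the adjusted threshold were 577 with no low-count filter, 20 on the rows of the authors' filtered table, 285 with DESeq2 and 0 with limma-voom (1189 higher and 1831 lower at an unadjusted p under 0.05), and from 0 to 963 with 1 library left out. There were 963 without phlebotomy 2, 0 without phlebotomy 1 (728 higher and 801 lower at an unadjusted p under 0.05), 14 without control 2 and 7 without control 4. Of the 39 genes, 1 (Ndrg1) passed with no low-count filter and with DESeq2, and 0 to 2 passed with 1 library left out, the 2 (Egln3 and Ndrg1) without phlebotomy 2.

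The genes higher at an unadjusted p under 0.05 numbered 5 with upper-quartile scaling or the length and GC trend removed, 7 with library totals, 1 with limma-trend on the deposited values (pseudocount 0.5 or 1), and 1 to 4 with 1 library left out. The lower ones numbered 4 with upper-quartile scaling, a minimum count of 50 or the replicate block, 3 with library totals, 2 with the trend removed, and 3 to 8 with 1 library left out. Without control 1, phlebotomy 1 or phlebotomy 4 there were 1 higher and 3 lower. Every count of higher genes given here includes Hif3a, which passed the main low-count filter only through the phlebotomy libraries.

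Over all genes tested the median log2 fold change was 0.14 with library totals, 0.082 with upper-quartile scaling and 0.042 with the trend removed. It was 0.18 with no filter, 0.010 with a minimum count of 50 and 0.044 on the filtered rows. With limma-trend it was -0.077 and -0.070, and with 1 library left out -0.0059 to 0.014. The glycolysis median was 0.079 with library totals, 0.12 with the trend removed and -0.15 to 0.095 with 1 library left out. It was 0.095 without control 4 and 0.071 without phlebotomy 1. The HIF regulator median was -0.095 with upper-quartile scaling, -0.035 with library totals, -0.26 on the filtered rows and with limma-trend at both pseudocounts, -0.070 with the trend removed and -0.25 to -0.13 with 1 library left out. The median of the other targets was -0.11 with upper-quartile scaling, -0.059 with library totals, -0.25 with no filter, -0.14 with a minimum count of 50, -0.28 on the filtered rows, -0.28 and -0.27 with limma-trend at pseudocounts 0.5 and 1, -0.064 with the trend removed and -0.28 to -0.11 with 1 library left out.

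Single genes turned as follows. With upper-quartile scaling the log2 fold changes were 0.054 for Slc2a3, 0.074 for Aldoa, 0.041 for Vhl and 0.046 for Bnip3l, and with a minimum count of 50 they were 0.053 for Slc2a3, 0.074 for Aldoa, 0.041 for Vhl and 0.045 for Bnip3l. Library totals gave 0.10 for Slc2a3, 0.13 for Aldoa, 0.099 for Vhl, 0.095 for Bnip3l, 0.036 for Pfkm, 0.052 for Pkm, 0.035 for Slc16a3, 0.055 for Egln2 and 0.056 for Kdm3a. The trend removed gave 0.12 for Slc2a3, 0.093 for Aldoa, 0.023 for Vhl, 0.063 for Pfkm, 0.11 for Pkm, 0.23 for Slc16a3, 0.17 for Egln2, 0.041 for Kdm3a, 0.0096 for Slc2a1, 0.10 for Pfkl, 0.033 for Pfkfb4 and -0.00053 for Bnip3. Car9 had -0.0097 with no filter, -0.036 on the filtered rows, and -0.017 and -0.013 with limma-trend. With 1 library left out the ranges were -0.24 to 0.25 for Slc2a3, -0.090 to 0.057 for Aldoa, -0.15 to 0.054 for Vhl, -0.19 to 0.030 for Bnip3l, -0.29 to 0.18 for Pfkm, -0.17 to 0.028 for Pkm, -0.40 to 0.26 for Slc16a3, -0.17 to 0.019 for Kdm3a, -0.19 to 0.19 for Car9, -0.33 to 0.011 for Slc2a1, -0.58 to 0.054 for Car12 and -0.0070 to 0.32 for Ankrd37.

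The values gave no sign that column numbers pair the libraries: deviations of libraries with the same number correlated at -0.13, -0.11 and -0.08. Those with unlike numbers correlated at -0.035 to 0.11. With 3 libraries a group, such a check cannot exclude a pairing. With the replicate block 3 genes passed the adjusted threshold, and the block called none of the 39. The low counts of Hif3a and Car9 limit what their values can show.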
